A study of Mus musculus with 137 samples.

Results

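Gene expression in the duodenal crypt of female mice that drank 20 ppm Cr(VI) for 90 days (day 91) was compared with that of mice given water without Cr(VI) over the same time. The comparison held every library whose labels give the crypt, 90 days and 20 ppm or 0 ppm, which were 10 of the 137 libraries of the series, 5 per group. Each library came from a separate mouse, and the mice are called here by the numbers in their labels: 3, 5, 6, 7 and 8 for controls and 321, 323, 325, 327 and 328 at 20 ppm. All were wildtype B6C3F1 mice, the hybrid of the C57BL/6 and C3H strains, and Cr(VI) was given as sodium dichromate dihydrate. Crypt tissue was scraped from sections of formalin-fixed, paraffin-embedded duodenum after the villi had been removed, and RNA was read with TempO-Seq, a targeted assay that counts the reads of paired oligonucleotides joined on each transcript. Levels and tests of other crypts and villi of the series, at 0.1 to 180 ppm and after 7 or 90 days, are given below only where they show how the 20 ppm crypts differ. All 137 libraries entered the fit that called genes, so the others also bear on its filter, scaling and estimate of the spread.

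The intestinal crypt holds the stem cells and dividing progenitors that renew the epithelium, with Paneth cells at its base. Daughter cells leave the cycle as they move toward the villus, where they take up nutrients through a brush border of microvilli. Epithelial cells of the small intestine also present peptides on MHC molecules, and T lymphocytes that carry granzymes lie between them.

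The table held 30146 probes for 21450 genes, with up to 6 probes per gene. Total counts ran from 2717447 to 5136000 in the control crypts and from 3686014 to 6679867 at 20 ppm (exact permutation test, two-sided, p = 0.802, smallest possible p 0.00794). Between 15603 and 20705 probes were detected per control library and between 18877 and 22426 per 20 ppm library (exact permutation test, two-sided, p = 0.111). Levels are CPM (counts scaled to a common library size), scaled between libraries by TMM, and compare the same probe between mice, not one gene with another. The control crypt of mouse 5 stood apart: the summed level of 22 pancreatic acinar markers was 266600 CPM in it, against 8114 to 46800 CPM in the other controls and 3288 to 39730 CPM at 20 ppm. A gene was called a DEG when one of its probes had a Benjamini-Hochberg adjusted p under 0.1 in edgeR's quasi-likelihood test. "Rose" and "fell" are used only for such genes in the fit of all 137 libraries in 28 groups. A second fit, of the crypts at day 91 alone, is given beside it for the gene lists and for many of the named genes. It differs from the first in the libraries, the probes that passed the filter, the scaling and the estimate of the spread. Its number of DEGs was much larger.

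At 20 ppm, 54 genes (57 probes) were DEGs, 0.284% of the 19020 genes tested. Of these, 37 rose (0.195% of the genes tested) and 17 fell (0.0894%). The 20 ppm and control mice did not overlap for 50 of the 57 probes (3.81% of all probes tested). In the fit of crypts alone 1821 genes passed, 13.4% of 13570, with 1218 higher (8.98%) and 610 lower (4.5%), and all 54 were among them in the same direction. Fold changes of the same probe were close in both fits, and standard errors were smaller in the fit of crypts alone for each of the 57 probes. The median log2 fold change over all probes was 0.00. With DESeq2's size factors in place of TMM there were 39 DEGs (0.205%), 14 higher (0.0736%) and 25 lower (0.131%), so the share that rose went from 68.5% to 35.9%. DESeq2 itself, which the study used, called 336 of 21450 genes here with all libraries. Of these, 129 were higher and 207 lower, so 38.4% were higher. The number of DEGs also depended on single mice. It was 11 without mouse 328, 13 without control mouse 3, 15 without 323, 17 without control mouse 6, 19 without 321, 25 without control mouse 5, 31 without 325 or without control mouse 8, 37 without control mouse 7 and 46 without 327. *Pck1*, *Cldnd1*, *Epha2*, both probes of *Ero1l* and 1 probe of *Abcb1a* passed in each of these 10 fits. *Gcnt3*, *Dusp6*, *Mme* and *Gzmb* passed in 5 of the 10, *H2-D1* in 3, *Il1rl1* in 2, *H2-T23*, *Psmc1*, *Krt12* and *Apob* in 1, and *Gsr* and *Tap2* in 0.

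**Figure D1:**
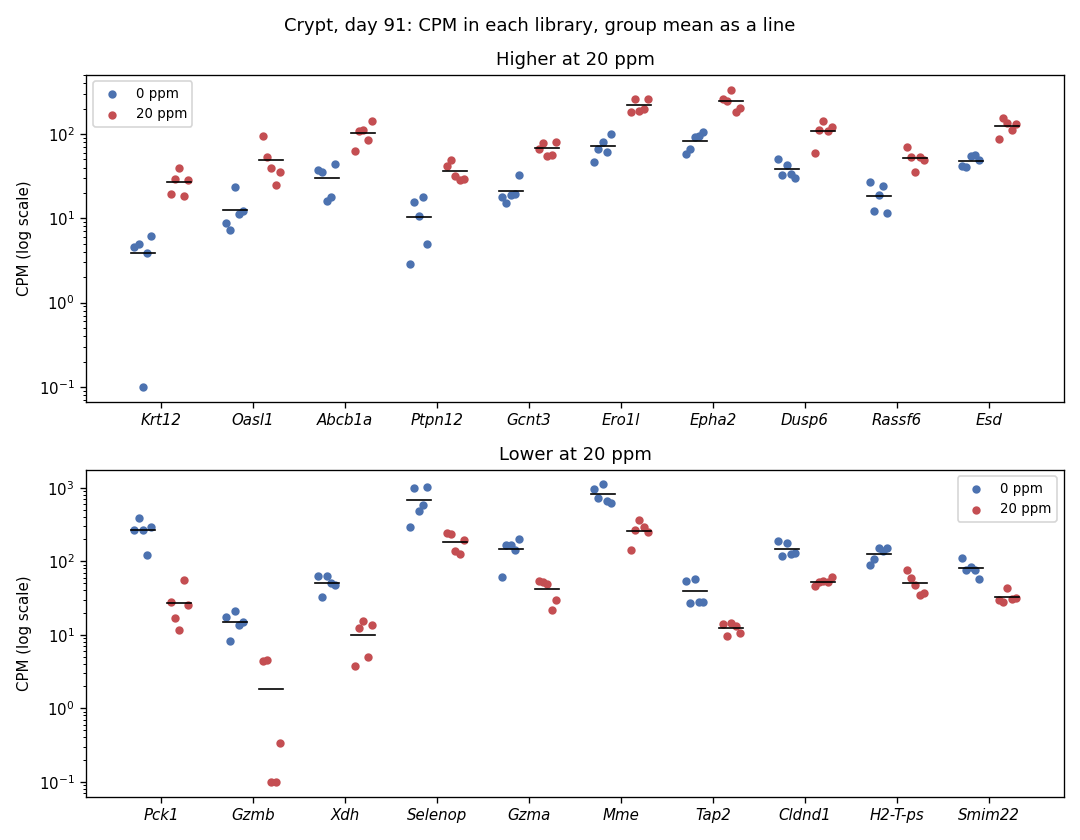
CPM of selected genes in each crypt at day 91 (log axis, values under 0.1 CPM drawn at 0.1). Each point is 1 mouse, with 5 controls and 5 mice at 20 ppm, and lines are group means. *Pck1* was 120 to 394 CPM in controls and 11.5 to 54.9 CPM at 20 ppm, with no overlap.

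*Pck1* encodes phosphoenolpyruvate carboxykinase, the enzyme that commits carbon to gluconeogenesis. It lies at chr2:173153048-173159273 on the plus strand (gene coordinates here are GRCm38, GENCODE M21). Its level was 265, 394, 264, 120 and 296 CPM in control mice 3, 5, 6, 7 and 8, and 27.6, 17.1, 11.5, 54.9 and 25.2 CPM in mice 321, 323, 325, 327 and 328. Every exposed mouse was below every control, and *Pck1* fell by 3.27 on the log2 scale (SE 0.58, adjusted p = 0.000701), to 0.102 of the control mean. Without single mice the log2 change ran from -3.68 to -3.08 and the highest adjusted p was 0.0134. Its day 91 means at the other doses, from 0.1 and 1.4 through 5 to 60 and 180 ppm, were 95.6, 99.8, 104, 7.59 and 7.68 CPM. After 7 days the means were 384 CPM without Cr(VI) and 27.6 CPM at 20 ppm.

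Among the genes that rose, *Ero1l* (chr14:45283087-45318771, minus strand) encodes an oxidase that drives disulfide bond formation in the endoplasmic reticulum. Its more abundant probe gave 135, 316, 138, 255 and 256 CPM in the controls and 709, 626, 521, 469 and 652 CPM at 20 ppm. The groups did not overlap, and the probe rose by 1.43 on the log2 scale (SE 0.23, adjusted p = 0.000201), while the second probe rose by 1.61 (SE 0.31, adjusted p = 0.00551). *Epha2* (chr4:141301240-141329384, plus strand), an ephrin receptor tyrosine kinase, was 58.7, 66.0, 91.2, 94.4 and 104 CPM in controls. At 20 ppm it was 259, 248, 336, 183 and 201 CPM, above every control (log2 1.56, SE 0.31, adjusted p = 0.00935). *Gcnt3*, which builds the branched core O-glycans of mucins, rose from 15.3 to 33.1 CPM to 54.6 to 81.4 CPM, again without overlap (log2 1.67, SE 0.38, adjusted p = 0.0335). *Dusp6*, a phosphatase induced by and acting on ERK, rose from 30.1 to 51.2 CPM to 59.2 to 142 CPM (log2 1.5, adjusted p = 0.0345). *Bhlhe40*, a transcriptional repressor of the circadian clock with other inputs, rose by 1.20 (adjusted p = 0.0243) and was the only DEG among 26 circadian clock genes.

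*Abcb1a* (chr5:8660077-8748575, plus strand) encodes the P-glycoprotein efflux pump. Its first probe was 37.3, 35.5, 15.9, 18.1 and 44.5 CPM in the controls and 63.0, 110, 112, 83.9 and 142 CPM at 20 ppm. Each exposed mouse was above each control (log2 1.74, SE 0.29, adjusted p = 0.00034), and the second probe rose by 1.34 (adjusted p = 0.0179) with mouse 321 at 118 CPM inside the control range of 83.4 to 146 CPM. The list of phase I and II xenobiotic metabolism, with 74 genes tested, also held efflux pumps. *Abcb1a*, such a pump, was its 1 DEG, so no enzyme of the list was a DEG. In the fit of crypts alone 10 of 70 were higher and 5 lower, beside 8.98% and 4.5% of all genes. Among those higher were *Akr1b8*, an aldo-keto reductase (14.8 to 34.6 CPM against 77.9 to 115 CPM, log2 2.10, adjusted p = 1.32e-05), and *Gsta1*, a glutathione transferase (log2 0.97, adjusted p = 0.00238). *Cyp2b10*, a cytochrome P450, was lower in that fit (log2 -1.36, adjusted p = 0.0448).

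*Gsr*, glutathione reductase, was the DEG among 36 targets of NRF2, the transcription factor of the antioxidant response, and genes of glutathione. It was 478, 740, 598, 715 and 584 CPM in the controls and 1112, 1494, 1084, 1141 and 1495 CPM at 20 ppm. The groups did not overlap (log2 1.02, SE 0.26, adjusted p = 0.0913), but the call was lost in all 10 fits that left out a mouse, with adjusted p up to 0.432. Among crypts alone 9 of 33 listed genes were higher and 3 lower, beside 8.98% and 4.5% of all genes. *Gpx2*, the epithelial glutathione peroxidase, *Gclm*, the modifier subunit of glutathione synthesis, and *Txnrd1*, thioredoxin reductase, were higher there (log2 1.47, 0.93 and 0.73, adjusted p = 0.00534, 0.0139 and 0.00393). *Cat*, catalase, was lower (log2 -0.96, adjusted p = 0.00354). With all libraries the median log2 fold change of this list was 0.27. With size factors it was 0.13 and the list had no call, against medians of 0.03 and -0.04 for all genes. *Txn2*, the mitochondrial thioredoxin, rose in the fit of all libraries (log2 0.92, adjusted p = 0.0847).

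Several genes of protein synthesis, folding and degradation rose. *Eif6*, a factor of 60S ribosome maturation, was 346 to 520 CPM in the controls and 665 to 1013 CPM at 20 ppm (log2 0.94, SE 0.20, adjusted p = 0.0155). *Eif3d*, a subunit of the initiation factor eIF3, was 64.0 to 214 CPM and 200.3 to 345 CPM, with mouse 325 inside the control range (log2 1.03, adjusted p = 0.0179). These were the 2 DEGs of 48 translation factors, of which 17 were higher and 1 lower in the fit of crypts alone (8 and 10 higher without control mouse 3 or 6, and 13 to 19 without any other mouse). *Hspa4*, a cofactor of HSP70, was the DEG of 29 chaperones (log2 0.78, adjusted p = 0.0395), and 10 of 28 were higher and 0 lower among crypts alone (6, 6 and 4 higher without mouse 323, mouse 328 or control mouse 3), including *Hspa8* and *Hspa9*, the cytosolic and mitochondrial HSP70, and *Cct3* of the chaperonin that folds tubulin and actin (log2 0.71, 0.79 and 0.99). *Psmc1*, an ATPase of the proteasome cap, rose by 0.77 (adjusted p = 0.0913). Of 37 constitutive proteasome genes, 12 were higher and 0 lower in the fit of crypts alone, and 5, 6, 6 and 7 were higher without control mouse 3, control mouse 6, mouse 323 or mouse 328. Of the 5 genes of the immunoproteasome and its PA28 activator, 4 were lower and 0 higher in that fit. With all libraries none of the 5 was a DEG, and 4 had a fold change below 0 and 1 above. The 4 became 1 without mouse 323, 325 or 327 or control mouse 6 or 7, and 2 without mouse 328 or control mouse 3. Of all genes in the fit of crypts alone, 8.98% were higher and 4.5% lower. With size factors in place of TMM, the median log2 fold change of translation factors went from 0.21 to 0.07. That of chaperones went from 0.26 to 0.15 and that of constitutive proteasome genes from 0.30 to 0.13, while that of all genes went from 0.03 to -0.04. Translation factors then kept 2 calls and chaperones 1, and no proteasome gene was called.

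Ribosome biogenesis had no DEG among 50 genes in the fit of all libraries, although its median log2 fold change was 0.39 against 0.03 for all genes. In the fit of crypts alone 10 were higher and 0 lower, and *Taf1d*, of the RNA polymerase I initiation complex, was 67.9 to 121 CPM in controls and 198 to 288 CPM at 20 ppm (log2 1.18, adjusted p = 0.00051). Cholesterol synthesis had 9 of 27 higher and 0 lower in that fit (4 and 5 higher without control mouse 3 or 6), and *Srebf2*, its master transcription factor, was among those higher (log2 0.87, adjusted p = 0.00344). These shares stood beside 8.98% of all genes higher and 4.5% lower in the same fit. No call was made for cholesterol synthesis in the fit of all libraries. With size factors the median of ribosome biogenesis was 0.24, and that of cholesterol synthesis went from 0.34 to 0.18.

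MHC genes were 5 of the 17 genes that fell. Of 38 listed genes of antigen processing and MHC, *H2-K1*, *H2-D1*, *H2-T23* and *Tap2* fell and none rose, and *H2-T-ps*, an annotated class I pseudogene outside the list, also fell. *H2-K1* and *H2-D1* encode the classical class I heavy chains, *H2-T23* the Qa-1 chain that presents leader peptides, and *Tap2* a subunit of the pump that carries peptides into the endoplasmic reticulum. The promoters of the 3 class I chains that fell are shown to set their letters side by side. They are 300 bases each, 250 before and 50 after the RefSeq start, in GRCm38.p6, which is the C57BL/6 sequence. *H2-K1* is chr17:34000298-34000597 (minus strand), *H2-D1* chr17:35262844-35263143 (plus strand) and *H2-T23* chr17:36032652-36032951 (minus strand), each written 5′ to 3′ on its gene's strand. Capitals mark matches to TTTCNNTT, a core of interferon-stimulated response elements, and to GGGGATTCC, an NF-kappaB site, searched on both strands and chosen after the promoters had been seen.
H2-K1: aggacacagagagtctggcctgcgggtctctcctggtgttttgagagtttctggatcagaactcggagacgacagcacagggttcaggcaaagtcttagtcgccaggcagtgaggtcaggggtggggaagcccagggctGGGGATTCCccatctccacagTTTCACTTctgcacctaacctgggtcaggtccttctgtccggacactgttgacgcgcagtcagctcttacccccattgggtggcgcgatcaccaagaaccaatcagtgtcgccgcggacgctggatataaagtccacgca
H2-D1: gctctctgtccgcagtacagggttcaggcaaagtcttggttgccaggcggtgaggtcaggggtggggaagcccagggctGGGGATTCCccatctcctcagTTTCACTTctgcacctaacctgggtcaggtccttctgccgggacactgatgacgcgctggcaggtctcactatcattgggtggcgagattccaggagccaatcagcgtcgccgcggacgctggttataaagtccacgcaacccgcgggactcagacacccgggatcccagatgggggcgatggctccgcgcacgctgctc
H2-T23: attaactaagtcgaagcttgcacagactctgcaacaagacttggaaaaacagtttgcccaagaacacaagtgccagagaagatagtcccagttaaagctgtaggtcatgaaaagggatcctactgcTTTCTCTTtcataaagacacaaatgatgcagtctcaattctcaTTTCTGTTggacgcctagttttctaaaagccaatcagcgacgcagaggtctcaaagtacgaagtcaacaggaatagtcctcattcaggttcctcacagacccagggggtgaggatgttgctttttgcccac

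TTTCNNTT was found in 23.92% of the 32851 promoter windows, and in a window of 17 of the 31 listed MHC genes that had one (54.8%), against 26.67% of all genes. GGGGATTCC was in 0.25% of windows and in those of *H2-D1*, *H2-K1* and *H2-Q7* among the listed genes. In *H2-K1* and *H2-D1* the capitals lie in the same order with the same bases, whereas *H2-T23* held no GGGGATTCC and 2 matches to TTTCNNTT. The motifs were chosen after promoters of this list had been seen, so these shares are not a test. A match is a description of these letters, not of binding.

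*H2-K1* had 1 of 4 probes called. That probe gave 261, 184, 363, 249.8 and 221 CPM in the controls and 91.8, 109, 116, 112 and 105 CPM at 20 ppm. No exposed mouse reached the lowest control (log2 -1.26, SE 0.27, adjusted p = 0.0179, 0.166 without control mouse 6), whereas the other probes had log2 fold changes of -0.01, -0.51 and -0.49. *H2-D1* was 82.0, 36.6, 72.3, 62.4 and 70.8 CPM in the controls and 24.9, 18.5, 40.5, 16.1 and 22.0 CPM at 20 ppm. Mouse 325 overlapped control mouse 5 there (log2 -1.39, SE 0.34, adjusted p = 0.0706). *H2-T23* was 313 to 465 CPM in the controls and 135 to 206 CPM in 4 exposed mice, with mouse 321 at 388 CPM within the control range (log2 -0.94, adjusted p = 0.087). *Tap2* had 1 probe of 3 called, 26.7 to 58.2 CPM against 9.68 to 14.3 CPM (log2 -1.62, adjusted p = 0.0982), a call lost without any 1 mouse. Class I genes are close copies of each other and differ between the parent strains, so reads of a probe may not belong to the named gene alone.

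In the fit of crypts alone 20 of 36 MHC genes tested were lower and 2 higher, and 12 were lower without mouse 327 or control mouse 6, and 14 to 19 without any other mouse. The 2 higher genes, of which 0 remained without mouse 323, mouse 328 or control mouse 3 and 1 without control mouse 6, were *Calr* and *Pdia3*, chaperones of the endoplasmic reticulum that also load class I. Of 10 class I chains 6 were lower, of 8 class II genes 5 were lower, and none of either was higher. Of all genes in that fit, 4.5% were lower and 8.98% higher. *H2-Ab1*, a class II beta chain, was 71.5 to 142 CPM in the controls and 37.0 to 47.0 CPM at 20 ppm (log2 -1.34, adjusted p = 0.000642 among crypts alone, 0.29 among all libraries). *Cd74*, the invariant chain, was 258 CPM in control mouse 3, 618 to 756 CPM in the other controls and 195 to 322 CPM at 20 ppm (log2 -1.27, adjusted p = 0.00125 and 0.245). *Tapbp*, tapasin, had 27.6 to 60.4 CPM and 12.9 to 21.1 CPM (log2 -1.41, adjusted p = 0.00924 and 0.217). The median log2 fold change of the list was -0.60 with all libraries and -0.75 with size factors, against 0.03 and -0.04 for all genes.

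**Figure D2:**
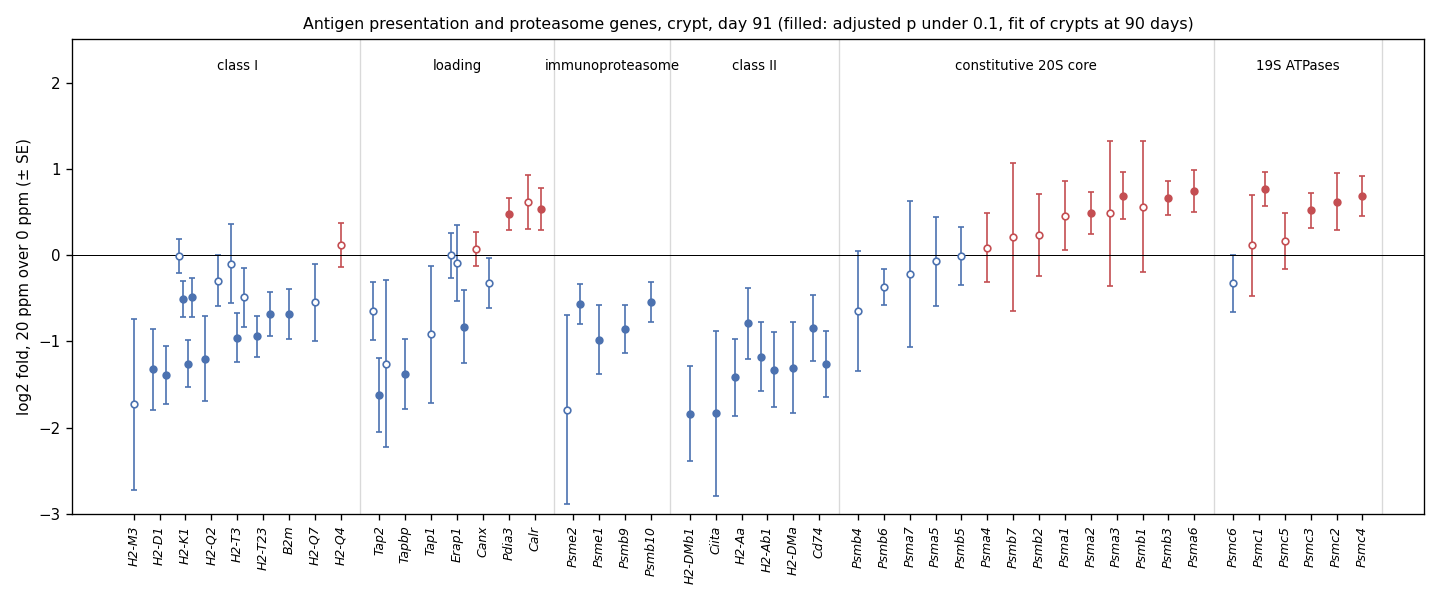
log2 fold change (y axis, bars are the standard error, fit of all libraries) of 20 ppm against control crypts at day 91, for each probe of genes of antigen presentation and of the proteasome whose mean was at least 5 CPM in either group. Filled points passed at an adjusted p under 0.1 in the fit of crypts alone, red points are above 0 and blue points below, and the class II genes, drawn here with their transactivator *Ciita*, all lie below 0.

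Interferon-induced genes outside antigen presentation had 1 DEG among 44, and it rose. *Oasl1*, an OAS-like protein of the antiviral response, was 8.73, 7.37, 23.5, 11.2 and 12.1 CPM in the controls and 95.1, 53.3, 39.1, 25.2 and 35.5 CPM at 20 ppm. The groups did not overlap (log2 1.92, SE 0.39, adjusted p = 0.0108, 0.136 without mouse 321). *Adar*, which edits double-stranded RNA and is outside the list, rose by 1.23 (adjusted p = 0.0395). The call was lost without mouse 321, mouse 323, control mouse 3 or control mouse 6 (adjusted p up to 0.285). Its mean was 43.1 CPM in the controls and 101.6 CPM at 20 ppm, with mouse 321 at 162.6 CPM. Day 91 means at 0.1, 1.4, 5, 60 and 180 ppm were 70.5, 73.15, 88.3, 119.8 and 74.95 CPM. Controls at 7 days had a mean of 85.7 CPM. Of 42 listed interferon-induced genes 6 were higher and 1 lower in the fit of crypts alone (3 higher without mouse 321 or control mouse 3), beside 8.98% and 4.5% of all genes. Among those higher was *Mx1*, an antiviral GTPase, at 0.927 to 9.83 CPM in the controls and 11 to 42.7 CPM at 20 ppm (log2 2.49, adjusted p = 0.00546).

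Lymphocyte granzymes fell. *Gzma* was 61.8, 165, 168, 144 and 199.8 CPM in the controls and 53.5, 52.4, 48.5, 21.9 and 30.1 CPM at 20 ppm. All exposed mice were below all controls, the nearest pair being control mouse 3 and mouse 321 (log2 -1.83, SE 0.39, adjusted p = 0.0179, 0.109 without mouse 328). *Gzmb* was 8.19 to 20.8 CPM in the controls and 4.32, 4.56, 0, 0 and 0.338 CPM at 20 ppm, near the limit of these libraries (log2 -2.73, adjusted p = 0.0737). *Btnl6*, a butyrophilin-like gene of the gut epithelium, the family that maintains intraepithelial gamma delta T cells, fell by 1.08 (adjusted p = 0.0914). The summed level of 14 markers of T cells and intraepithelial lymphocytes was 246 to 427 CPM in the controls and 87.7 to 179 CPM at 20 ppm, without overlap. This sum includes *Gzma* and *Gzmb* and is not separate from their calls. With all libraries 13 of the 14 markers had a fold change below 0 and 1 above. In scraped tissue, fewer cells of a type and less RNA per cell cannot be told apart. *Il1rl1*, the receptor of IL-33, was listed at 0 in 4 controls, at 2.46 CPM in control mouse 5, and at 2.70 to 16 CPM at 20 ppm (adjusted p = 0.0925). These low levels make its fitted log2 fold change depend on the prior count.

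*Mme* (neprilysin, a peptidase of the apical membrane) was 964, 724, 1110, 655 and 619 CPM in the controls and 144, 264, 362, 289 and 250.1 CPM at 20 ppm. The ranges were far apart (log2 -1.64, SE 0.38, adjusted p = 0.0345). It was the 1 DEG of 40 brush border genes, and in the fit of crypts alone 17 of 38 were lower and 1 higher (10 and 11 lower without control mouse 6 or mouse 327, and 12 to 18 without any other mouse). Of these, 7 of 13 hydrolases were lower, 7 of 18 transporters and 3 of 7 structural genes, beside 4.5% of all genes. *Ace*, the angiotensin-converting enzyme, was 106 to 221 CPM in the controls and 45.7 to 66.8 CPM at 20 ppm (log2 -1.43, adjusted p = 0.00102), and *Slc5a1*, the sodium-glucose cotransporter, was lower by less (log2 -0.60, adjusted p = 0.0305). The median of the brush border list was -0.59, against 0.03 for all genes, and -0.73 against -0.04 with size factors.

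*Xdh*, xanthine dehydrogenase, which makes uric acid, fell from 32.5 to 62.8 CPM to 3.78 to 15.3 CPM (log2 -2.30, SE 0.50, adjusted p = 0.0179). *Selenop*, the selenium carrier of plasma, fell with both probes (log2 -1.86 and -1.81, adjusted p = 0.0269 and 0.0914). The more abundant probe was 293, 989, 479.8, 581 and 1024 CPM in the controls and 239, 232, 139, 124 and 193 CPM at 20 ppm, so that control mouse 3 was nearest to the exposed mice. *Apob*, the structural protein of chylomicrons, fell by 1.25 (adjusted p = 0.0982), with control mouse 5 at 83.8 CPM inside the exposed range of 37.5 to 92.2 CPM. Of 28 lipid absorption genes 5 were higher and 4 lower in the fit of crypts alone, beside 8.98% and 4.5% of all genes. Without single mice 2 to 5 were higher. *Cldnd1*, a claudin-domain membrane protein, fell from 118 to 186 CPM to 45.9 to 61.8 CPM (log2 -1.46, adjusted p = 0.0168). Its mean was 146.7 CPM in these controls and 52.95 CPM at 20 ppm. Day 91 means at 0.1, 1.4, 5, 60 and 180 ppm were 91.6, 116.5, 82.9, 40.1 and 62.7 CPM, and controls at 7 days had a mean of 79.1 CPM.

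Of the other genes that rose, *Krt12*, a keratin, went from 0 to 6.22 CPM to 18.4 to 39.3 CPM (log2 2.65, adjusted p = 0.087). *Nampt*, which makes the NAD precursor nicotinamide mononucleotide, went from 34.1 to 75.7 CPM to 108 to 159 CPM (log2 1.22, adjusted p = 0.0749). *Ptpn12*, *Rassf6*, *Esd*, *Plek2*, *Ddx39*, *B4galt6*, *Tyw1*, *Ubap1*, *Arl5a*, *Ptbp3*, *Skp1a*, *Ppp4r1*, *Cops5*, *Banf1*, *Lpin2*, *Tes*, *Lsr*, *Capza2*, *Nufip2* and *Fat1* also rose, by 0.73 to 1.72 on the log2 scale. *Gm8797*, *Smim22* and *Nat9* fell as well, by 1.37, 1.30 and 0.90.

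None of the crypt and villus markers named here passed with all libraries: *Pcna*, a DNA polymerase clamp, was 54.7 to 138 CPM in the controls and 137 to 192 CPM at 20 ppm (log2 0.45, adjusted p = 0.467). *Lyz1*, lysozyme of Paneth cells, had a log2 fold change of -0.31, *Mmp7* -0.19, *Defa22* 0.14, *Ephb2* 0.44, *Klf4* 0.90 and *Vil1* -0.11, with adjusted p from 0.406 to 1. Among crypts alone *Klf4*, a transcription factor of differentiating epithelium, was higher (log2 0.89, adjusted p = 0.0704), and *Defa5*, a Paneth cell defensin, was lower (log2 -1.31, adjusted p = 0.0734, 0.772 with all libraries). The summed Paneth markers were 8450 to 21250 CPM in the controls and 11660 to 16200 CPM at 20 ppm, and the villus enterocyte markers 28560 to 53740 CPM and 40420 to 69990 CPM, so both sets of ranges overlapped and the scraped tissue held enterocyte RNA in every library. Of 14 villus enterocyte markers in the fit of crypts alone, 4 were higher and 1 lower, and 0 to 3 were higher without single mice. With all libraries their median log2 fold change was -0.24, with 6 above 0 and 10 below. Mitosis and cyclin genes had 12 of 63 higher and 2 lower in the fit of crypts alone, and *Plk1*, a mitotic kinase, was among those higher (log2 1.16, adjusted p = 0.00432). DNA replication genes had 5 of 54 higher and 0 lower there, a share higher that was close to the 8.98% of all genes. The 12 became 5 without mouse 328, control mouse 3 or control mouse 6 and 7 without mouse 323, and the 5 became 2 without control mouse 6. Of 69 DNA damage genes in that fit 3 were higher and 1 lower, smaller shares than the 8.98% and 4.5% of all genes, and the 3 became 0 without mouse 328, control mouse 3 or control mouse 6, 1 without mouse 321 and 7 without control mouse 5. Those higher included *Fanci*, of the Fanconi pathway (log2 0.85, adjusted p = 0.0726), and *Trp53* (log2 0.44, adjusted p = 0.0881), and *Sesn3* was lower. The median log2 fold changes of the mitosis and DNA replication lists were 0.27 and 0.24 with all libraries, and 0.12 and 0.1 with size factors. With all libraries the adjusted p of *Fanci* and *Trp53* were 0.695 and 0.44. *Hif1a* had a log2 fold change of 0.41 (adjusted p = 0.645) and *Ctnnd1* of 0.24 (adjusted p = 0.884), each for its most abundant probe.

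**Figure D3:**
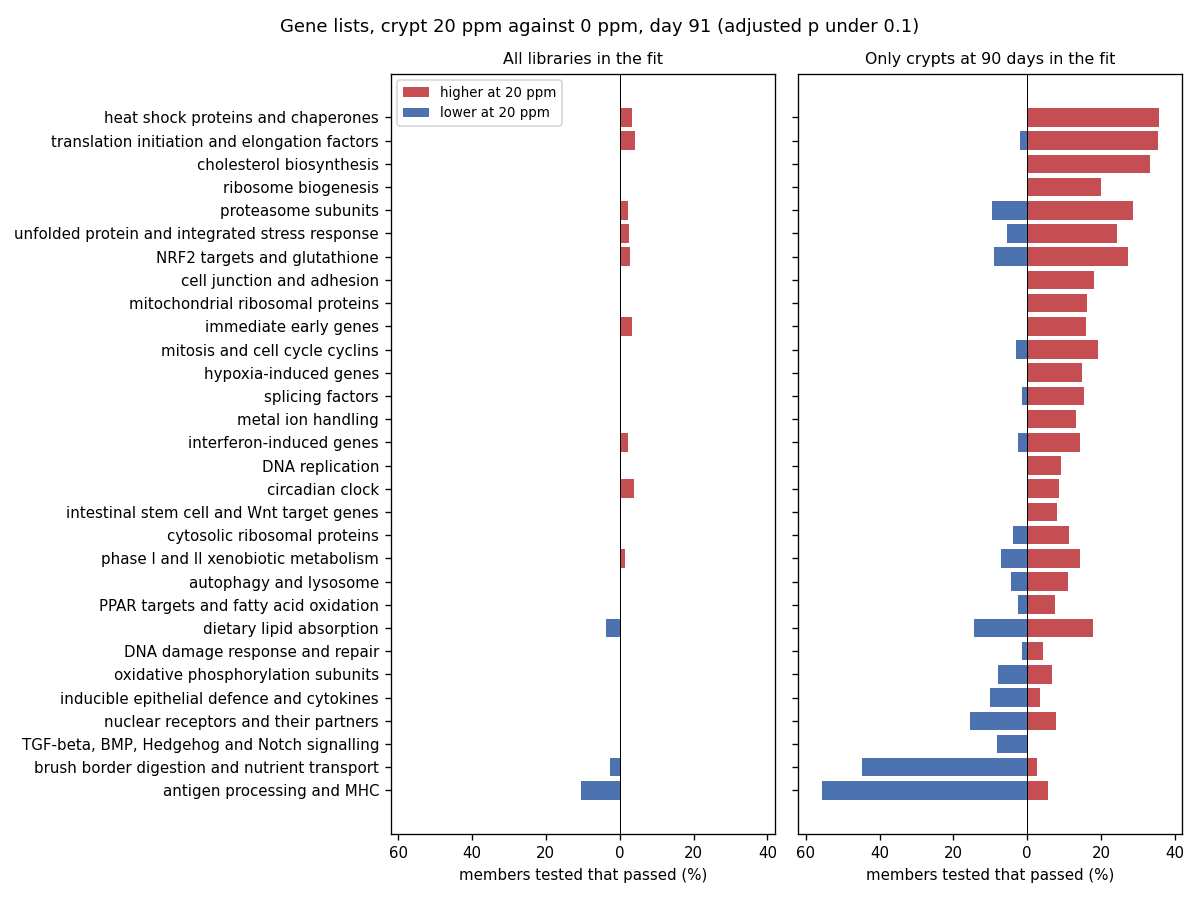
Percent of the tested genes of each list that were higher (red, to the right) or lower (blue, to the left) at 20 ppm in crypts at day 91 at an adjusted p under 0.1, with all libraries in the fit (left) and with crypts alone (right). In the fit of crypts alone 20 of 36 MHC genes were lower, and 17 of 48 translation factors were higher. Of all genes in that fit, 8.98% were higher and 4.5% lower.

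Among the remaining lists, *Ero1l* was the 1 DEG of 39 genes of the unfolded protein and integrated stress response, of which 9 of 37 were higher and 2 lower in the fit of crypts alone. Of all genes in that fit, 8.98% were higher and 4.5% lower. In that fit 12 of 74 mitochondrial ribosomal proteins were higher and 0 lower, 9 of 79 cytosolic ones were higher and 3 lower, 11 of 71 splicing factors were higher and 1 lower, 7 of 39 junction genes were higher and 0 lower, and 5 of 34 hypoxia-induced genes were higher and 0 lower. Oxidative phosphorylation subunits had 5 of 75 higher and 6 lower, nuclear receptors and their partners 3 of 39 higher and 6 lower, and stem cell and Wnt target genes 2 of 25 higher and 0 lower. The shares higher in the oxidative phosphorylation, nuclear receptor and stem cell lists were below that of all genes. The shares lower in the nuclear receptor and oxidative phosphorylation lists, 6 of 39 and 6 of 75, were above the 4.5% of all genes. Without single mice these lower counts ran from 2 to 6 for nuclear receptors and from 2 to 11 for oxidative phosphorylation. The share of cytosolic ribosomal proteins was close to it. The higher mitochondrial ribosomal proteins were 5, 7 and 7 without mouse 328, control mouse 3 or control mouse 6. The higher cytosolic ones were 3, 3, 4 and 4 without control mouse 3, control mouse 6, mouse 323 or mouse 328, and 20 without control mouse 5, the library rich in acinar RNA. Without single mice the higher counts ran from 4 to 10 for the stress response, 5 to 12 for splicing, 4 to 8 for junctions, 2 to 7 for hypoxia, 1 to 8 for oxidative phosphorylation and 1 to 6 for nuclear receptors, with the lowest without control mouse 3, control mouse 6 or mouse 328. None of the 8 lists from mitochondrial ribosomal proteins to stem cell genes had a DEG with all libraries, and their medians lay between -0.11 and 0.17. With size factors the medians of the cytosolic ribosomal, hypoxia, nuclear receptor, oxidative phosphorylation and DNA damage lists changed sign, to -0.04, -0.01, -0.10, -0.13 and -0.02, and that of splicing factors was -0.0. The median of all genes also changed sign, from 0.03 to -0.04. Those of the stress response, mitochondrial ribosomal and junction lists went from 0.19, 0.16 and 0.17 to 0.05, 0.02 and 0.04.

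Smooth muscle markers summed to 3576 to 5424 CPM in the controls and 2206 to 3476 CPM at 20 ppm, with no overlap, and in the fit of crypts alone 9 of 11 were lower, including *Myl9* (log2 -0.58, adjusted p = 0.0436). Of all genes in that fit, 4.5% were lower. Fibroblast markers summed to 1290 to 1887 CPM and 984 to 1435 CPM, with 7 of 12 lower (3 without control mouse 3). Enteroendocrine markers summed to 528 to 713 CPM and 317 to 453 CPM, with 4 of 11 lower, including the hormone gene *Sst* (log2 -0.93, adjusted p = 0.0104). *Igha*, the constant region of IgA, was 2877 to 10320 CPM and 2178 to 3132 CPM (log2 -1.18, adjusted p = 0.00051 among crypts alone, 0.164 among all libraries). The 10 plasma cell and B cell markers, however, had a median log2 fold change of 0.10 and no call in either fit, and their sums of 836 to 1770 CPM and 1179 to 1871 CPM overlapped. *Igkc*, the kappa light chain constant region, had a log2 fold change of 0.00 with all libraries and *Jchain*, the joining chain of IgA, of 0.10. The part of these tissues in the genes that fell was not tested. With the pancreatic acinar markers as a covariate all 54 DEGs passed in the same direction, and without control mouse 5 the fit of crypts alone gave 2142 genes, with 2 higher and 19 lower in the MHC list.

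The next dose was tested directly against 20 ppm. From 20 to 60 ppm, 2 genes rose (0.0105% of those tested) and none fell: *S100a6*, a calcium-binding protein, with mean levels of 64.0 and 223 CPM (log2 1.79, SE 0.35, adjusted p = 0.0224), and *Stk40*, a kinase-like protein, with 198 and 464 CPM (log2 1.22, SE 0.24, adjusted p = 0.0224). Neither was a DEG at 20 ppm against control. At an unadjusted p under 0.05 there were 1857 probes. Mean levels at 0, 0.1, 1.4, 5, 20, 60 and 180 ppm were 83.0, 82.7, 86.9, 91.1, 246, 441 and 284 CPM for *Epha2*. For *Gzma* they were 148, 156, 141, 144, 41.3, 33.3 and 19.9 CPM, and for *H2-K1* 256, 228, 229.5, 152, 107, 76.7 and 109 CPM. *Epha2* and *Gzma* thus had means at 5 ppm close to the control mean, while *H2-K1* had a lower mean at 5 ppm and *Pck1* at every dose from 0.1 ppm. These differences are given as levels only, and the doses share their controls.

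**Figure D4:**
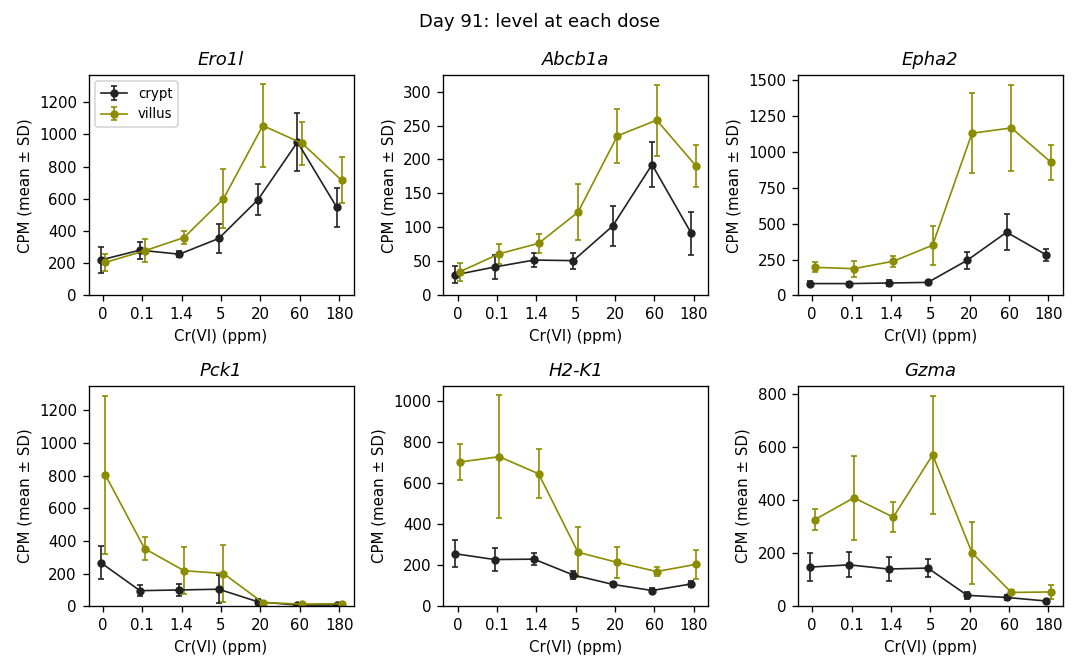
Mean CPM with SD (linear axes from 0) of 6 probes in crypts (black) and villi (olive) at day 91, at doses from 0 to 180 ppm drawn at equal spacing. In the crypt *Epha2* had means of 82.7 to 91.1 CPM up to 5 ppm and 246 CPM at 20 ppm, and *Pck1* of 268 CPM at 0 ppm and 27.3 CPM at 20 ppm.

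The villi of the same mice gave 4 control and 5 exposed libraries. Total counts ran from 1667014 to 2678299 in the control villi and from 2757622 to 5868978 in the exposed villi. Between 13091 and 15835 probes were detected per control villus and between 17989 and 20266 per exposed villus. Depth and dose thus went together in the villi. The effect of 20 ppm differed between crypt and villus for 65 genes (0.342%), with 64 lower in crypt (0.336%) and 1 higher (0.00526%). The median difference over all probes was -0.29 on the log2 scale, or -0.14 with size factors. With log10 total count as a covariate 49 of 19020 genes passed, 6 higher and 43 lower. After counts were thinned to the smallest total 29 of 14450 passed, 2 higher and 27 lower. With mouse as a block, 205 genes passed (1.08%), 13 higher (0.0683%) and 192 lower (1.01%). *Stk40* had means of 104 and 553 CPM in control and exposed villi but 155 and 198 CPM in crypts, a difference of -2.05 (SE 0.36, adjusted p = 0.000945, 0.000189 with the block). *Safb*, a nuclear scaffold protein, had means of 89.5 and 383 CPM in control and exposed villi and 188 and 272 CPM in crypts (difference -1.56, adjusted p = 0.00138). *Adora2a*, *Mss51* and *Robo1* had the other small p-values, but each was listed at 0 in the control villi, so no fold is given. Among the DEGs of the crypt only *Capza2*, an actin capping protein, differed (difference -1.15, adjusted p = 0.0801, 0.138 with the block). *Pck1* was 805 and 22.5 CPM in the villi, and its difference of 1.85 (adjusted p = 0.287) passed with mouse as a block (1.60, adjusted p = 0.0284), as did those of *Tyw1*, *Ddx39*, *Apob* and the less abundant *Ero1l* probe (adjusted p = 0.0314, 0.0346, 0.068 and 0.0573).

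After 7 days the same dose was given to other mice, 5 per group. The effect differed between 90 and 7 days for 2 genes (0.0105%), with 2 higher and 0 lower. *Sgk1*, a kinase induced by glucocorticoids and salt, had means of 40.7 CPM without Cr(VI) and 2.73 CPM at 20 ppm after 7 days, and 9.10 and 13 CPM after 90 days (difference 4.13, adjusted p = 0.0281). *Banp*, a nuclear protein that binds CG-containing DNA elements, had 102 and 35.5 CPM after 7 days and 63.4 and 79.9 CPM after 90 days (difference 1.84, adjusted p = 0.0281). No DEG of the crypts at day 91 was among them. Means at 7 days without Cr(VI) and at 20 ppm were 219 and 47.5 CPM for *Gzma*, 101 and 147 CPM for *Epha2*, 94.8 and 68.0 CPM for *Bhlhe40*, and 242 and 137 CPM for *H2-K1*.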

How the data were processed

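The labels gave crypt or villus, dose and days for 137 libraries of TempO-Seq from duodenum of B6C3F1 mice. Values are counts per probe as the authors deposited them. Their methods describe reads taken per probe from FASTQ files and libraries removed for low depth or gene diversity, and the processing notes name bcl2fastq 2.17.1.14 and Bowtie. The genome build is not given in the sources used here, and all columns were mapped to samples.

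Counts were fitted in edgeR 4.0.16 (R 4.3.3) with TMM scaling, filterByExpr, 28 groups, trended dispersion and the earlier form of the quasi-likelihood F test, two-sided, with Benjamini-Hochberg adjustment over probes and a threshold of 0.1. The study itself used DESeq2, which was an alternative here (version 1.42.0) beside other scaling, filters, forms of the fit, libraries, covariates, thinning and leaving out each mouse. Scripts were tested on simulated data. Intervals and tests cover the spread between these mice only, and 3 counts was the floor per library.

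Named were up to 15 genes per direction that passed without overlap at 10 CPM or more, list members that passed (or the most abundant), genes the study names, compartment markers, and the genes with the smallest adjusted p in the other contrasts. Genes named from the fit of crypts alone were chosen after their values were seen. Members and lists were chosen with earlier results of these data known. Same-mouse crypt and villus deviations from group means had a median r of 0.259 (range 0.103 to 0.396, 9 pairs, over 9975 probes). The 36 other pairs had a median of -0.08 and a range of -0.347 to 0.34. Centring on group means lowers the r of other pairs, and some of these exceeded a same-mouse pair. The numbers in the labels were taken to mark the same animal. RefSeq promoters (GRCm38.p6) matched 31 of 38 MHC genes.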

Additional observations from a re-analysis of the deposited data

Results flagged for a closer look

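Single libraries stood far from the others of their group by Dixon's ratio, which chance alone does in about 1 of 20 groups. With 212 groups tested, 10.6 were to be expected and 10 were found. In control crypts these were mouse 8 for *Gcnt3* (33.1 CPM, ratio 0.766) and for *Pcna* (54.7 CPM, 0.795), mouse 5 for *Il1rl1* (2.46 CPM, 1.0), mouse 7 for *Ephb2* (83.6 CPM, 0.743), and mouse 3 for *Cd74* (258 CPM, 0.722) and *Slc5a1* (1076 CPM, 0.753). At 20 ppm they were mouse 321 for *H2-T23* (388 CPM, 0.721) and *Psmb9* (115 CPM, 0.737), mouse 325 for *Smim22* (43.1 CPM, 0.787), and mouse 328 for the total count (6679867, 0.869).

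The effect of 20 ppm differed between crypt and villus, by the interaction test in edgeR, for *Capza2* (-1.15 on the log2 scale, adjusted p = 0.0801), *Adora2a* (-6.47, 0.000143), *Stk40* (-2.05, 0.000945), *Mss51* (-3.96, 0.00131), *Safb* (-1.56, 0.00138), *Robo1* (-4.92, 0.00429) and *Taf1d* (-2.12, 0.0373). *Adora2a*, *Mss51* and *Robo1* were listed at 0 in the control villi, so their fitted differences depend on the prior count. It differed between 90 and 7 days for *Sgk1* (4.13, 0.0281) and *Banp* (1.84, 0.0281).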

How the results depend on the processing

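Depth limits what single genes can show: probes under a few CPM rest on few reads. The number of DEGs at 20 ppm (54) was 28 with no filter beyond 1 count, 84 with a mean count of at least 10, 134 with the newer form of the edgeR fit, 336 with DESeq2, 841 from the 10 libraries alone, 1821 from crypts at day 91, 118 with acinar markers as a covariate and 23 at an adjusted p under 0.05. Without single mice it was 11 to 46, and 977 (without control mouse 3) to 2142 (without control mouse 5) in the fit of crypts alone, an alternative chosen after seeing the data that also gave 1116 without control mouse 6 and 1193 without mouse 323. The cause was not tested.

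From 20 to 60 ppm the 2 genes became 0 with size factors or thinning, 6 with the newer form, 143 with DESeq2, 1674 with the libraries of the contrast, 898 with crypts at day 91 and 4 with summed probes, and 0 to 2 without single mice. Between crypt and villus the 65 genes became 17 with size factors, 37 with no filter, 40 with the newer form, 237 with DESeq2, 99 with the libraries of the contrast, 31 with summed probes, 29 with thinning, 205 with mouse as a replicate block, 21 at an adjusted p under 0.05, and 21 to 284 without single mice (284 without the villus of control mouse 7). Between 90 and 7 days the 2 genes became 4 with a mean count of at least 10 or with depth as a covariate, 11 with DESeq2, 10 with the libraries of the contrast, 0 with thinning, and 0 to 4 without single mice.

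Of the 57 probes called, over all settings other than leaving out a mouse, 544 values kept their call and 83 lost it, and over the fits without a mouse 254 kept it and 316 lost it; no called probe changed direction. Directions changed for uncalled values: *Defa22* was -0.003 with size factors and with DESeq2, *Adora2a* 0.01 after thinning and 0.09, 0.16 and 0.16 without control mouse 7, mouse 327 or control mouse 5 (range without single mice -0.166 to 0.164), and *Robo1* 0.10 without control mouse 8 (range -0.381 to 0.096). The difference in mean total count, 194057 reads, was -28058.8 without control mouse 3, -181264.2 without control mouse 8 and -372713 without mouse 328, with a range of -372713 to 423374.0, and that in probes detected 1388 to 2663.5.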
